A study of Mus musculus with 9 samples.

Results

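Triglyceride breakdown in the kidney was followed through 5 genes, the lipases Pnpla2, Lipe, Mgll and Lipa and the lipase cofactor Abhd5, taken by name from the 23420 genes in the deposited table. All 5 were among the 15098 genes tested, whose normalized counts averaged 10 or more over the libraries. RNA sequencing was done on cortex pieces of about 50 mg from male C57/BL6 mice kept on chow, with 1 library per mouse. In the fed group (5 mice) food was freely available, and in the fasted group (4 mice) it was withheld for 16 h before death. No genotype, transgene or drug is named in the labels, and no age, batch, litter or time of collection. Normalized counts are reads divided by 1 size factor per library. Changes are differences of log2(value + 1), fasted minus fed. Each comes with its standard error (SE) and limma's p-value adjusted by Benjamini-Hochberg over all genes tested. A gene was called changed at an adjusted p under 0.05.

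Cells hold triglyceride in lipid droplets and can break it down by separate routes. In the cytosolic route, called neutral lipolysis, adipose triglyceride lipase (the product of Pnpla2) removes the first fatty acid with the help of its coactivator CGI-58 (Abhd5). Hormone-sensitive lipase (Lipe) then acts on diglyceride, and monoglyceride lipase (Mgll) releases the last fatty acid and glycerol. In the lysosomal route, lysosomal acid lipase (Lipa) hydrolyses triglyceride and cholesteryl esters that arrive by endocytosis or by autophagy of droplets. The proximal tubule, the main cell mass of the cortex, takes much of its energy from fatty acids.

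In the fasted kidneys the 3 cytosolic lipase genes were higher and the cofactor and lysosomal genes did not pass. Lipe, Mgll and Pnpla2 rose, by 1.35, 1.22 and 0.69 on the log2 scale, and in each of them every fasted library lay above every fed library. Abhd5 and Lipa had slightly lower means in the fasted group, with groups that overlap. Across all genes tested, limma called 5.72% higher after the fast and 5.25% lower. All fasted libraries lay above all fed ones in 7.62% of genes and below them in 6.64%. The shares called higher and lower were 5.72% and 5.25% by edgeR, 7.95% and 7.60% by DESeq2, and 8.77% and 9.13% by voom with quality weights, and each of these tools called the same 3 lipase genes higher. These are counts in whole cortex, where fewer cells of a type and less RNA per cell cannot be told apart. The plot of normalized counts by library shows the 5 genes.

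**Figure D1:**
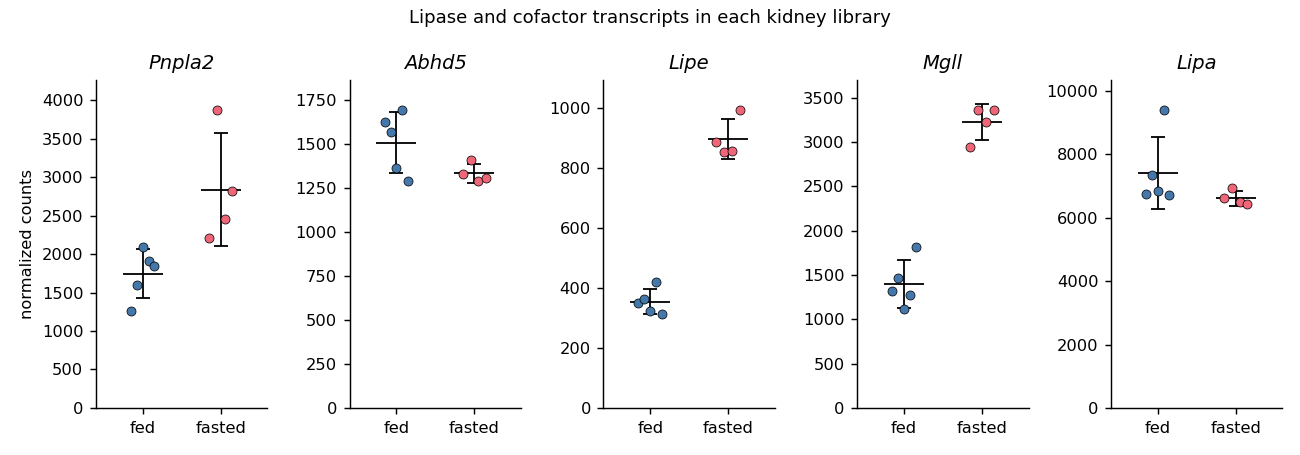
Normalized counts (y axis, linear, from 0) of the 5 genes in each fed (blue, 5 mice) and fasted (red, 4 mice) library. Points are libraries, horizontal lines are group means and error bars are the SD. The groups are separate for Pnpla2, Lipe and Mgll and overlap for Abhd5 and Lipa.

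Lipe lies on chromosome 7 (25379527 to 25398710, minus strand, GRCm38) and Mgll on chromosome 6 (88724412 to 88828360, plus strand). Pnpla2 lies on chromosome 7 (141455198 to 141460743, plus strand), Abhd5 on chromosome 9 (122351608 to 122381524, plus strand) and Lipa on chromosome 19 (34492318 to 34527474, minus strand). All are protein-coding genes of GENCODE M21. The promoters of the 3 genes that rose are shown because they changed together, as RefSeq windows (GRCm38.p6) from 250 bases before to 50 bases after a transcript start, written 5′ to 3′ on the gene's strand. Capitals mark the motifs searched. The window of the downstream Mgll start (chr6:88724454-88724753) held no match and is not shown.
Lipe, upstream start, chr7:25395938-25396237, minus strand: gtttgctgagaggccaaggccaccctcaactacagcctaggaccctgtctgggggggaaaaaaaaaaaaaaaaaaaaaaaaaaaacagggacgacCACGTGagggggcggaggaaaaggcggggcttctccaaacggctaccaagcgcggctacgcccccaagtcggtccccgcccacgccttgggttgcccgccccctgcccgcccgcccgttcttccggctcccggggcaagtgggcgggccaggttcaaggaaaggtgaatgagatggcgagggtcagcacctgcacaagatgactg
Lipe, downstream start, chr7:25390063-25390362, minus strand: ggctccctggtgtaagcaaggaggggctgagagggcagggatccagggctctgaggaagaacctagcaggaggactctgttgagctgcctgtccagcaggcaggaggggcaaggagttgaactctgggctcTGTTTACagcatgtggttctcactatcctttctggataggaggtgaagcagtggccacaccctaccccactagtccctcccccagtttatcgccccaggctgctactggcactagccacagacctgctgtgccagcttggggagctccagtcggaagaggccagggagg
Mgll, upstream start, chr6:88724162-88724461, plus strand: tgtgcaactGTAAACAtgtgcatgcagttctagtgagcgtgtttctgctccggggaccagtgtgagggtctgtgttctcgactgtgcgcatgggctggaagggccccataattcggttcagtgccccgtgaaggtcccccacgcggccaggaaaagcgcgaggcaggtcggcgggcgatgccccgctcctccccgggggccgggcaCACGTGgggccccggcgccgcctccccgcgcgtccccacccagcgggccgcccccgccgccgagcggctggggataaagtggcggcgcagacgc
Pnpla2, chr7:141454938-141455237, plus strand: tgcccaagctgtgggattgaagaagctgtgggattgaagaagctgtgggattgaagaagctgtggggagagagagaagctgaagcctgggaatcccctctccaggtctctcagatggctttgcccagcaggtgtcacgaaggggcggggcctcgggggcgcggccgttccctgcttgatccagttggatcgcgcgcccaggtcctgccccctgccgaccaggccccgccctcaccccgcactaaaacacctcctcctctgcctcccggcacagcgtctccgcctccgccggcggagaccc

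The motifs were the nuclear receptor repeat AGGTCA, its direct repeat with a spacer of 1 base, bound by PPAR with RXR, the FoxO site GTAAACA, the E-box CACGTG and the cAMP response element TGACGTCA. Both strands were searched, and a direct repeat also holds 2 matches of AGGTCA. The E-box stood at position -155 from the upstream Lipe start and at -44 from the upstream Mgll start, and 7.15% of all 32851 RefSeq windows hold it. The FoxO site stood at -119 from the downstream Lipe start, on the opposite strand, and at -241 from the upstream Mgll start, and 3.65% of windows hold it. Neither stood in the Pnpla2 window or in the windows of Abhd5 and Lipa. Of the other motifs, AGGTCA (16.3% of windows) stood in the Abhd5 window at -69, on the opposite strand. The direct repeat (0.0396% of windows) and the cAMP response element (1.79%) stood in none of the 7 windows of the 5 genes. A match describes letters in the window. Gene counts do not tell which start was used.

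Pnpla2 encodes the lipase that opens the cytosolic route. Its normalized counts were 1266, 1602, 2090, 1913 and 1851 in Fed 1 to Fed 5 and 2207, 3881, 2453 and 2823 in Fasted 1 to Fasted 4. The gap between the groups was narrow, from Fed 3 at 2090 to Fasted 1 at 2207, and Fasted 2 was the highest library. The group means were 1745 ± 320 (SD, n = 5) and 2841 ± 738 (SD, n = 4), a log2 change of 0.69 (SE 0.17, 95% interval 0.31 to 1.07, limma adjusted p = 0.028). This was the least stable of the 3 calls. The adjusted p was 0.056 without Fed 1, 0.059 without Fed 2, 0.064 without Fasted 2 and 0.077 without Fasted 4. The change without a single library stayed between 0.53 and 0.80.

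Abhd5 encodes the protein that activates the Pnpla2 lipase. Its normalized counts were 1625, 1567, 1364, 1697 and 1291 in Fed 1 to Fed 5, and 1329, 1410, 1290 and 1309 in Fasted 1 to Fasted 4. All fasted libraries lay at or below 1410, near the lower fed libraries Fed 3 and Fed 5, and the groups overlapped. The means were 1509 ± 174 (SD, n = 5) and 1335 ± 52.9 (SD, n = 4), a log2 change of -0.17 (SE 0.09, 95% interval -0.36 to 0.02, limma adjusted p = 0.23). With voom and sample quality weights it passed as lower (-0.23, adjusted p = 0.043), and by edgeR and DESeq2 it did not. An increase as large as that of Pnpla2 lies outside the interval.

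Lipe encodes hormone-sensitive lipase. Its normalized counts were 351, 362, 324, 419 and 313 in Fed 1 to Fed 5 and 887, 852, 855 and 994 in Fasted 1 to Fasted 4. The lowest fasted library was far above the highest fed one, Fed 4. The means were 354 ± 41.4 (SD, n = 5) and 897 ± 66.7 (SD, n = 4), with a log2 change of 1.35 (SE 0.09, 95% interval 1.14 to 1.55, limma adjusted p = 3.04e-05). By p-value this was rank 8 of the 15098 genes tested, and by size of increase rank 126. The lowest library held 246 reads of Lipe, a counting error of 6.38%, and the spread between fed mice was 11.7%.

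Mgll encodes monoglyceride lipase, which ends the cytosolic route. Its normalized counts were 1321, 1466, 1112, 1269 and 1815 in Fed 1 to Fed 5 and 2944, 3363, 3225 and 3364 in Fasted 1 to Fasted 4. Fed 5 stood above the other fed libraries, and all fasted libraries stood well above Fed 5. The means were 1397 ± 266 (SD, n = 5) and 3224 ± 198 (SD, n = 4), a log2 change of 1.22 (SE 0.12, 95% interval 0.96 to 1.49, limma adjusted p = 0.000216). By p-value this was rank 37 and by size of increase rank 161.

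Lipa encodes the lysosomal acid lipase. Its normalized counts were 6760, 7347, 6848, 9416 and 6714 in Fed 1 to Fed 5, and 6618, 6926, 6483 and 6421 in Fasted 1 to Fasted 4. Fed 4 stood apart from all other libraries, and Fasted 2 lay among the fed values. The means were 7417 ± 1146 (SD, n = 5) and 6612 ± 225 (SD, n = 4), a log2 change of -0.15 (SE 0.10, 95% interval -0.37 to 0.06, limma adjusted p = 0.34). Without Fed 4 the log2 change was -0.06 (adjusted p = 0.54). None of the 19 alternative settings called Lipa.

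The authors' deposited table gives log2 changes of 1.28 for Lipe, 1.11 for Mgll and 0.61 for Pnpla2, with adjusted p-values of 6.13e-35, 6.32e-18 and 0.00123. For Abhd5 and Lipa the authors' deposited table gives -0.17 and -0.16, with adjusted p-values of 0.213 and 0.323. Lipe, Mgll and Pnpla2 are in the list of genes the authors annotated, and Abhd5 and Lipa are not.

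**Figure D2:**
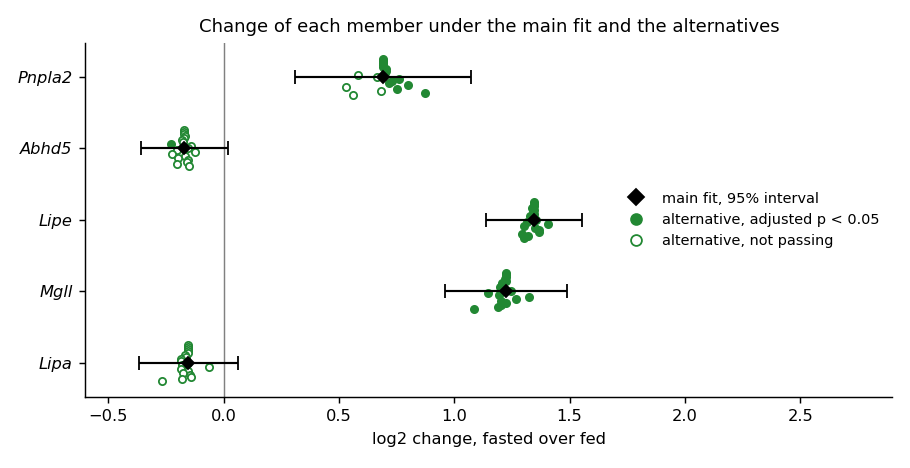
Log2 change, fasted over fed (x axis), of each gene (y axis). Black diamonds are the main limma fit with its 95% interval, and green points are the 19 alternative settings, filled where the adjusted p was under 0.05 and spread vertically for visibility. Lipe and Mgll passed in every setting shown, Pnpla2 in 14, Abhd5 in 1 and Lipa in none.

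The ratio between 2 genes of a library hardly depends on that library's size factor. For each of the 10 pairs of the 5 genes, the log2 ratio was compared between groups by a two-sided exact permutation test over the 126 possible label assignments, whose smallest p is 0.0159. In 6 pairs the groups did not overlap, and all 6 had that smallest p (adjusted p = 0.0265 over the 10 pairs). These were each of Lipe, Mgll and Pnpla2 set against Abhd5 and against Lipa. The direction follows from the changes of the single genes.

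Against the lysosomal lipase, the Lipe level was 0.0445 to 0.0519 of the Lipa level in fed and 0.123 to 0.155 in fasted libraries. Its log2 ratio to Lipa rose by 1.50, from -4.38 ± 0.08 (SD, n = 5) to -2.88 ± 0.14 (SD, n = 4). Mgll stood at 0.135 to 0.270 of Lipa in fed and 0.445 to 0.524 in fasted libraries, a log2 rise of 1.38. Pnpla2 stood at 0.187 to 0.305 of Lipa in fed and 0.334 to 0.560 in fasted libraries, a log2 rise of 0.84. These are ratios of normalized counts, not corrected for transcript length.

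Set against its own cofactor, Pnpla2 went from between 0.779 and 1.53 times the Abhd5 count in fed libraries to between 1.66 and 2.75 times in fasted libraries (log2 rise of 0.86). Abhd5 and Lipa kept close to each other. Their ratio was 0.180 to 0.240 in fed and 0.199 to 0.204 in fasted libraries, with a difference of -0.02 on the log2 scale (exact permutation p = 0.84, adjusted 0.84). In Fed 4 Lipa was at its highest, and Abhd5 was at its highest too.

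Among the genes that rose, the ratio tests did not separate one from another. Lipe over Mgll differed by 0.12 on the log2 scale (exact permutation p = 0.63, adjusted 0.71), with 0.173 to 0.330 in fed and 0.253 to 0.301 in fasted libraries. Lipe over Pnpla2 differed by 0.65 (exact permutation p = 0.048, adjusted 0.068) and Pnpla2 over Mgll by -0.53 (exact permutation p = 0.063, adjusted 0.079). The pairs with Pnpla2 passed without Fasted 2, the library with the highest Pnpla2, with differences of 0.84 and -0.67 (exact permutation, adjusted p = 0.045 each).

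**Figure D3:**
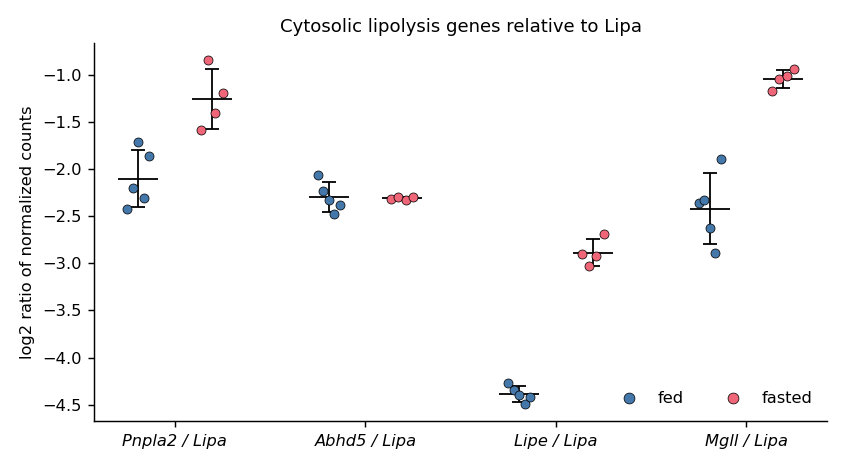
Log2 ratio of normalized counts of each cytosolic lipolysis gene to Lipa (y axis) in fed (blue, 5 mice) and fasted (red, 4 mice) libraries. Points are libraries, horizontal lines are means and error bars are the SD. The groups are separate for Pnpla2, Lipe and Mgll, and the Abhd5 ratio is nearly the same in all 4 fasted libraries.

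Per kilobase of annotated exons, Lipa had the highest level in fed kidneys, with 1094 ± 169 normalized counts per kilobase (SD, n = 5). Pnpla2 followed with 578 ± 106, then Mgll with 275 ± 52.4 and Abhd5 with 253 ± 29.2, whose libraries overlap, and Lipe was lowest with 60.1 ± 7.03. In fasted kidneys (SD, n = 4) Lipa had 975 ± 33.2 per kilobase and Pnpla2 941 ± 244, with overlapping libraries. Mgll followed with 635 ± 39.0, Abhd5 with 224 ± 8.88 and Lipe with 152 ± 11.3. Lipe thus remained the lowest of the 5 on this scale after the fast. With the longest coding transcript as the length, Lipa stood well above Pnpla2 in the fasted group too (2227 ± 75.8 against 1082 ± 281 per kilobase), and Abhd5 stood above Mgll in the fed group (478 ± 55.0 against 350 ± 66.7).

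The spread between mice exceeded the counting error for all 5 genes in the fed group. Its coefficient of variation ran from 11.5% for Abhd5 to 19.1% for Mgll in the fed group. In the fasted group it was 3.40% for Lipa, 3.96% for Abhd5, 6.14% for Mgll, 7.43% for Lipe and 26.0% for Pnpla2. Counting error was at most 6.38% in any library, for Lipe. Pnpla2 was the only one of the 5 with a wider relative spread after the fast, and Fasted 2 lay highest.

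By their pattern over the 9 libraries, other genes resembled each of the 3 that rose. Likeness was the root mean square difference of log2 levels, each relative to the gene's own fed mean. It was taken over 11112 genes averaging 100 normalized counts or more. The 5 genes themselves were left out of these, as were names beginning with Gm or LOC and a digit or ending in Rik. Nearest to Lipe were Dgkh (difference 0.17), Hsdl2 (0.18), Cpt2 (0.18) and Nkain1 (0.19). Hsdl2 encodes a peroxisomal short-chain dehydrogenase and Cpt2 the inner mitochondrial carnitine acyltransferase. Nearest to Mgll were Oplah (0.12), Eci2 (0.14), Slc27a1 (0.15) and Acot12 (0.15). Eci2 encodes an enoyl-CoA isomerase, Slc27a1 a fatty acid transport protein and Acot12 an acyl-CoA thioesterase. Nearest to Pnpla2 were Cirbp (0.13), Akr1c13 (0.17), Glud1 (0.18) and Rab43 (0.19). Cirbp encodes a cold-inducible RNA-binding protein and had 2306 normalized counts in Fasted 2 against 1074 to 1506 in the other fasted libraries. The call of Cirbp was lost without Fed 1 (limma adjusted p = 0.080), Fed 2 (0.071), Fasted 2 (0.066) or Fasted 4 (0.095). That of Pnpla2 was lost without the same libraries. Cirbp was picked for its likeness to Pnpla2, so these shared losses are not a separate likeness. Without Fed 3 and Fasted 1 together, Cirbp was not called (0.053) and Pnpla2 was (0.025). Among the 5 genes themselves, Abhd5 and Lipa were closest (0.11), then Lipe and Mgll (0.26). Genes that change little, as Abhd5 and Lipa did, come out close by this measure.

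Genes that hold lipolysis back or coat the droplet rose in 6 of 10 tested cases and fell in none, with a median log2 change of 1.70 against 0.00 over all genes tested. That count and median include Plin1, which was called, and Cidec, which was not. Both averaged under 10 in the fed group and were tested only through their fasted values. Both are also on the adipocyte marker list below. With a filter at a mean of 50 normalized counts, which leaves both out, 5 of 7 genes were called. The median was not taken without them. Without Fasted 2, Plin1 was not tested and 5 of 9 genes were called. Over all genes tested, 5.72% were called higher and 5.25% lower. The 5 other genes that rose were G0s2, Plin5, Abhd15, Plin2 and Plin4. G0s2, which encodes a protein inhibitor of the Pnpla2 lipase, had 744, 998, 848, 1053 and 498 normalized counts in Fed 1 to Fed 5 and 2707, 2630, 2872 and 2757 in Fasted 1 to Fasted 4. The inhibitor gene thus lay higher in every fasted library, with a log2 change of 1.77 (SE 0.18, limma adjusted p = 0.00027). Plin5, a droplet coat protein that binds the lipase and its cofactor, rose by 2.23 (SE 0.19, adjusted p = 9.63e-05). Abhd15, which has been tied to insulin's restraint of lipolysis, rose by 1.63 (SE 0.15, adjusted p = 0.000154). The coat genes Plin2 and Plin4 rose by 2.42 and 1.39 (limma adjusted p = 0.00057 and 0.00575). Hilpda, whose product also inhibits the Pnpla2 lipase, had 34.2 ± 7.45 (SD, n = 5) and 43.4 ± 3.41 (SD, n = 4) without passing (limma adjusted p = 0.25).

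Fasted 2, the library with the most Pnpla2, also had the most Plin2 (20357 against 6181 to 7662 in the other fasted libraries), Plin5 (734 against 416 to 495) and Abhd15 (608 against 397 to 509). It had the least Lipe of the fasted group (852), although Fasted 3 was close (855). Fed 5, the fed library with the most Mgll, had the most Plin5 of the fed group (156 against 88.1 to 108) and the least Lipe (313).

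Other lipid hydrolases rose in 6 of 20 tested cases and 1 fell, with a median of 0.07. Among all genes tested 5.72% rose and 5.25% fell. Pla2g16, a phospholipase of adipose tissue, rose from 437 ± 43.0 (SD, n = 5) to 778 ± 32.3 (SD, n = 4), a log2 change of 0.84 (limma adjusted p = 0.000282). Ces1d, a carboxylesterase with triglyceride hydrolase activity, rose by 0.57 (adjusted p = 0.00172), and the related Ces2c by 0.60 (adjusted p = 0.00651). Reads of carboxylesterase genes may be divided among near-identical copies, so their single values are uncertain. Ddhd2, a lipase of the brain and other tissues, rose by 0.47 (adjusted p = 0.0013), and the patatin-family genes Pnpla8 and Pnpla7 by 0.40 and 0.56 (adjusted p = 0.00488 and 0.0143). Pnpla7 was at the limit without Fasted 4 (0.0501). The gene that fell was 1110057K04Rik, a droplet-associated hydrolase, by 0.28 (adjusted p = 0.038). That call was lost without any single library other than Fed 5 or Fasted 1, with an adjusted p of up to 0.13, without Fasted 4.

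Genes that handle the released glycerol and fatty acids rose in 6 of 16 tested cases and fell in none, with a median of 0.47. All genes tested rose in 5.72% of cases and fell in 5.25%. Cpt2 rose by 1.13 and Cpt1a, the outer mitochondrial carnitine acyltransferase, by 0.82 (limma adjusted p = 1.55e-05 and 0.000907). Acsl1, an acyl-CoA synthetase, rose by 1.11 (adjusted p = 0.000154), and Gpd1, which links glycerol phosphate to glycolysis, by 0.85 (adjusted p = 0.000921). Acsl4 rose by 0.58 (adjusted p = 0.024), a call lost without Fed 1 (0.055), Fed 2 (0.053), Fasted 2 (0.067) or Fasted 4 (0.079). The last of the 6 was the fatty acid carrier Fabp4.

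Of 25 tested genes of hormonal control of lipolysis (adrenergic receptors, cAMP signalling, insulin signalling) 2 rose and 1 fell, with a median of 0.05. The shares over all genes tested were 5.72% higher and 5.25% lower. Adcy6, an adenylyl cyclase, rose by 0.29 and Insr, the insulin receptor, by 0.31, and Akt2, a kinase downstream of it, fell by 0.24 (limma adjusted p = 0.016, 0.017 and 0.031). None of these 3 was called without Fasted 4 (adjusted p = 0.061, 0.056 and 0.060). Insr was also lost without Fasted 1 (0.056) or Fasted 3 (0.055), and Akt2 without Fed 1 (0.060), Fed 4 (0.054), Fasted 1 (0.083), Fasted 2 (0.062) or Fasted 3 (0.079). Without Fasted 1 only 1 of the 25 was called.

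Of 18 tested transcription factor genes known to act on these lipases 1 fell and none rose, with a median of -0.03. Over all genes tested 5.25% fell and 5.72% rose. Srebf1, which drives lipid synthesis, fell by 1.24 (SE 0.15, limma adjusted p = 0.000744). Ppara, the receptor that drives fat burning genes, had 5420 ± 1346 (SD, n = 5) and 7609 ± 931 (SD, n = 4) normalized counts without passing (limma adjusted p = 0.055). It passed without Fed 4, the fed library with the most Ppara (adjusted p = 0.0056), and by DESeq2 (0.021) and voom with quality weights (0.022). Foxo1, a factor known to raise Pnpla2 when insulin is low, had 1586 ± 525 (SD, n = 5) and 1375 ± 79.9 (SD, n = 4) and did not pass (limma adjusted p = 0.62). Its log2 change was -0.15, and 0.02 without Fed 3. Tfeb, which drives lysosomal genes, had 618 ± 26.2 (SD, n = 5) and 602 ± 48.5 (SD, n = 4) (limma adjusted p = 0.76). Of the 18 factors, 3 were called without Fed 3 and 2 without Fed 4.

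Lysosomal enzymes and membrane proteins, the companions of Lipa, rose in 2 and fell in 2 of 41 tested cases, and their median was -0.03. As shares, these are close to the 5.72% higher and 5.25% lower over all genes tested. Scarb2, a lysosomal membrane protein, rose by 0.75 (limma adjusted p = 0.00262), and Neu1, a sialidase, fell by 0.47 (adjusted p = 0.00758). Arsb, a sulfatase, fell by 0.58 (adjusted p = 0.036), a call lost without Fed 1, Fed 2 or any fasted library (0.053 to 0.11). Npc1, which moves cholesterol out of lysosomes after Lipa has released it, had 1055 ± 78.8 (SD, n = 5) and 1153 ± 39.3 (SD, n = 4) without passing (limma adjusted p = 0.25). The count called was 2 without Fed 1, Fasted 2 or Fasted 4 and 7 without Fed 5.

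Of 19 tested autophagosome genes, which bring droplets to the lysosome, Sqstm1 rose by 0.58 (limma adjusted p = 0.00314) and none fell, with a median of 0.09. The count was 2 without Fed 4, 2 without Fed 5 and 3 without Fasted 2. For comparison, 5.72% of all genes tested rose and 5.25% fell. The plot of log2 changes by gene list sets these groups side by side.

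**Figure D4:**
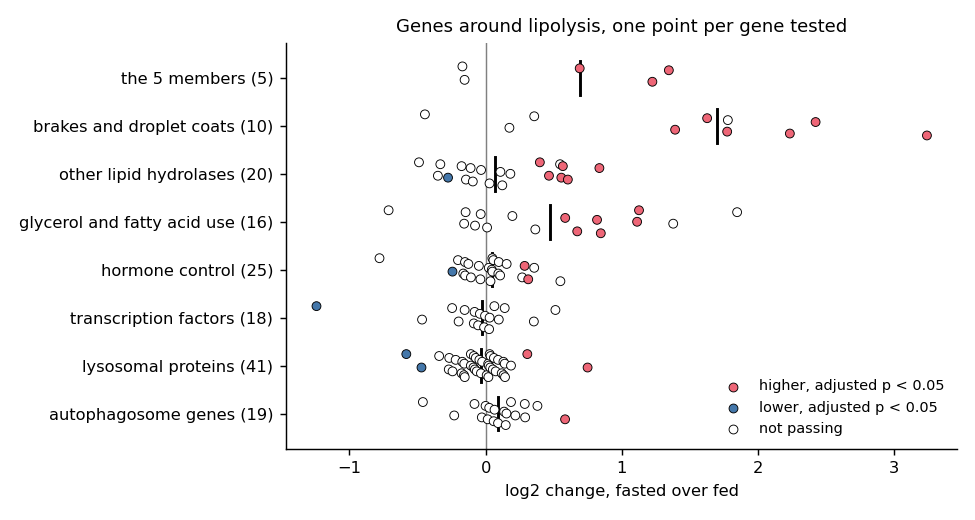
Log2 change, fasted over fed (x axis), of each tested gene in 8 lists (y axis, number tested in brackets). Points are genes, red where called higher, blue where called lower and white where not passing, and vertical bars are list medians. The lysosomal, autophagosome, hormone and transcription factor lists have medians between -0.03 and 0.09. The list of brakes and droplet coats includes Plin1 and Cidec, which were tested only through their fasted values.

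The authors' deposited annotation table holds the term lipase activity, with 18 genes of their changed list, a fold enrichment of 3.04 and a Benjamini p-value of 0.0094. It includes Lipe, Mgll and Pnpla2. That list was chosen on these same libraries, so its counts are not independent evidence, and here 12 of the 18 were called higher and 6 lower. Those lower were Gpld1, Aoah, Lipg, Plcb1, Pla2g5 and Plcxd2, which include Lipg, endothelial lipase, with a log2 change of -1.22 (limma adjusted p = 0.0222).

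Adipocytes and adrenal cortex also express Lipe strongly, so their markers were read beside it. Of 10 adipocyte markers 5 were tested, of which Fabp4 and Plin1 rose and Car3, Cidec and Thrsp did not pass. Fabp4 went from 597 ± 99.9 (SD, n = 5) to 951 ± 141 (SD, n = 4) (limma adjusted p = 0.00888). Plin1 was at 0 in all fed libraries but Fed 2 (1.84) and at 6.51, 70.7, 1.92 and 10.7 in Fasted 1 to Fasted 4. Leaving out Fed 1 (adjusted p = 0.059) or Fasted 4 (0.075) ended its call. Without Fasted 2 the mean of Plin1 was under 10, so it was not tested there. Car3 moved the other way, from 1242 ± 635 (SD, n = 5) to 337 ± 108 (SD, n = 4), with Fed 5 at 245 and the other fed libraries at 1031 to 1877. Its log2 change of -1.66 did not pass by limma (adjusted p = 0.062), but it passed as lower by edgeR (0.026), DESeq2 (0.0060) and voom with quality weights (0.017), and by limma without Fed 5 (-2.17, 0.00051). Cidec had 8.39 ± 8.29 (SD, n = 5) and 32.7 ± 29.1 (SD, n = 4) (limma adjusted p = 0.10), and passed as higher by DESeq2 (0.032) and without Fed 5 (0.032). The markers, Car3 among the most abundant, summed to between 1122 and 2633 in fed and 1110 and 1743 in fasted libraries. Adipoq, which defines adipocytes, had at most 2.79 normalized counts in any library, and Lep was at 0 in all but Fed 1. In Fasted 1 to Fasted 4, where Plin1 was 6.51, 70.7, 1.92 and 10.7, Lipe was 887, 852, 855 and 994. Mgll was 2944, 3363, 3225 and 3364 in the same libraries. Whether adipocytes add to these Lipe and Mgll counts was not tested.

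Neither tested adrenal cortex marker, Star or Akr1b7, was called by limma, although Star passed as higher without Fed 5 (log2 change 0.42, adjusted p = 0.027). Cyp11b1 and Cyp11b2 were at 0 in every library, Cyp11a1 had at most 2.79, and the list summed to between 258 and 352 in fed and 274 and 340 in fasted libraries. Of 10 macrophage markers, read beside Lipa, Cd14 rose (log2 change 0.55, limma adjusted p = 0.036), a call lost without Fed 1, 2, 4 or 5 or without Fasted 1, 3 or 4 (0.054 to 0.077). Mrc1 had 165 ± 20.5 (SD, n = 5) and 224 ± 40.5 (SD, n = 4) without passing (limma adjusted p = 0.079), and passed as higher by DESeq2 (0.037) and without Fasted 4 (0.028). Csf1r had the opposite sign, with 1662 ± 198 (SD, n = 5) and 1326 ± 239 (SD, n = 4) (limma adjusted p = 0.11), and did not pass in any alternative (log2 change -0.42 to -0.22). The other 7 (Emr1, Cd68, Lyz2, C1qa, C1qb, C1qc and Itgam) had log2 changes from 0.08 to 0.29 without passing. The 10 markers summed to between 2378 and 3286 in fed and 2357 and 3476 in fasted libraries. Of 8 hepatocyte markers Fga rose by 1.53 (limma adjusted p = 0.00168) and the other 7 did not pass. The median log2 change of the 8 was 1.23. Their counts summed to between 28557 and 46042 in fed and 33349 and 43570 in fasted libraries. Such a sum is weighted toward the most abundant markers, and the median is not. Neither brown adipocyte marker tested was called. The part of other cells in the results was not tested beyond these values.

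All 12 markers of cortex tubules and glomeruli were present in numbers, among them Lrp2 with 271792 ± 30620 (SD, n = 5) and 196593 ± 22400 (SD, n = 4) without passing (limma adjusted p = 0.066), although it passed as lower by DESeq2 (adjusted p = 0.00040), voom with quality weights (0.0063) and edgeR (0.030), and by limma without Fed 5 (0.021) or with a filter at a mean of 50 (0.048). Slc34a1 fell (limma adjusted p = 0.038), a call lost without any single library but Fed 5. Recovered reads per library lay between 18902645 and 32469467, and the ribosomal RNA entry Rn45s held 5.53% of counts in Fed 3, 2.36% in Fasted 1 and at most 1.38% elsewhere. Without Fed 3 and Fasted 1, Lipe, Mgll and Pnpla2 were still called higher, with log2 changes of 1.32, 1.19 and 0.87 (adjusted p = 0.00079, 0.0012 and 0.025). Antisense transcripts overlap exons of Lipe (4732471J01Rik, by up to 549 bases), Abhd5 (A730085K08Rik, 1900 bases) and Mgll (Gm26588, 573 bases), and whether counting used strand is not given in the sources used here. Neither 4732471J01Rik (124 ± 15.7 and 146 ± 16.3, SD, n = 5 and n = 4) nor A730085K08Rik (15.8 ± 2.47 and 19.5 ± 4.24) was called by limma, and Gm26588 was not analysed here.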

How the data were processed

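RNA of 9 mouse kidney cortex samples, 1 mouse each, was sequenced from TruSeq libraries. The submitters' processing notes name FastQC, TopHat2 2.0.9, HTSeq 0.9.1 and DESeq2 (version given as 3.5), and the builds mm10 and hg19. The annotation and strand setting are not given in the sources used here. The authors' deposited table holds counts divided by 1 size factor per library, a normalized signal, beside the authors' log2 fold changes, p-values and test statistic (a score). The authors' deposited annotation tables hold counts of genes, percent of the list, fold enrichment (a ratio) and p-values.

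Every value above 0 was a whole multiple (within 0.01 reads) of the worth of 1 read in its library, between 0.744 and 1.32 normalized counts, so reads were recovered for the count tests. Genes averaging 10 normalized counts or more were tested on log2(value + 1) with limma 3.58.1 (R 4.3.3) and Benjamini-Hochberg adjustment. Alternatives were edgeR 4.0.16, DESeq2 1.42.0, voom with quality weights, other scaling, filters and pseudocounts, each library left out, Fed 3 and Fasted 1 left out together, and Fed 4 and Fed 5 as the only fed libraries. Fold changes of low genes are understated on this scale. Pairs of genes were compared with exact permutation tests. The limma and edgeR tests were checked on simulated counts, and the other tests were not.

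Libraries are numbered in the order of their accessions within a group. The 5 genes and the gene lists were chosen with earlier results of these data known. From each pathway list up to 6 genes with the smallest adjusted p were named, with G0s2, Hilpda, Plin1, Plin5, Ppara, Foxo1, Tfeb and Npc1 whatever their values, and the markers of adipocytes, adrenal cortex and macrophages. Slc34a1, Lrp2, Fga and the genes of the lipase activity term were named after their values were seen. For 1 gene of the lysosomal list, values are not reported here.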

Additional observations from a re-analysis of the deposited data

Results flagged for a closer look

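In groups of 4 or 5 libraries, a library was singled out where its gap to the nearest other exceeded Dixon's 95% critical value. This held in 12 of 154 groups, and chance gives about 1 in 20. The 154 include the fed and fasted groups of the log2 ratios of the 10 gene pairs. All libraries singled out were in groups of single-gene values. Among the lipases, Lipa was at 9416 normalized counts in Fed 4 against 6714 to 7347 in the other fed libraries.

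Fed 5 stood apart in 4 genes. It had 156 normalized counts of Plin5 (88.1 to 108 in the other fed libraries), 2068 of Slc27a1 (1454 to 1631), 308 of Star (174 to 204) and 22.9 of Cidec (2.63 to 7.36). Fasted 2 stood apart in the droplet coat genes, with 20357 of Plin2 (6181 to 7662 in the other fasted libraries) and 70.7 of Plin1 (1.92 to 10.7).

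In Fasted 3, Cd14 was at 196 (122 to 132 in the other fasted libraries) and C1qa at 304 (204 to 220). Fasted 1 had 2708 of Ces2c, below the other fasted libraries (3096 to 3172). Fed 3 had 2492 of Foxo1 (1242 to 1596 in the other fed libraries). Fed 2 had 1.84 of Plin1, with 0 in the other fed libraries. Where all others are at 0, the rule singles out any value above 0, and 1 read in Fed 2 is worth 0.921 normalized counts.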

How the results depend on the processing

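Lipe and Mgll were called higher in all 19 alternatives, with log2 changes from 1.30 to 1.41 and from 1.15 to 1.32 when 1 library was left out. Pnpla2 kept its direction (0.53 to 0.80 without 1 library) and was not called without Fed 1, Fed 2, Fasted 2 or Fasted 4, or with the fed group cut to Fed 4 and Fed 5 (0.56). Abhd5 was called lower with voom and quality weights (-0.23) and in no other alternative, and Lipa in none. The number of genes called was 1656, 2702 with voom, 1068 without Fed 3 and Fasted 1, 357 with the fed group cut to Fed 4 and Fed 5, and 861 to 1959 without 1 library.

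The 6 log2 ratios that passed kept their direction and lost the call without Fasted 1, 3 or 4 (adjusted p = 0.060 by exact permutation), but not without Fasted 2 (0.045). The smallest possible p was 0.036 in each of these, and 6 pairs reached it without Fasted 1, 3 or 4 and 8 without Fasted 2, which sets the adjustment. Without 1 library they ranged over 1.46 to 1.57 for Lipe over Abhd5, 1.44 to 1.54 for Lipe over Lipa, 0.72 to 0.97 for Pnpla2 over Abhd5, 0.71 to 0.96 for Pnpla2 over Lipa, -1.55 to -1.32 for Abhd5 over Mgll and 1.26 to 1.51 for Mgll over Lipa. In that order they were 1.52, 1.50, 1.07, 1.05, -1.39 and 1.37 without Fed 3 and Fasted 1, and 1.45, 1.57, 0.71, 0.83, -1.23 and 1.35 with the fed group cut to Fed 4 and Fed 5, again with too few assignments to pass. Lipe over Pnpla2 ranged from 0.55 to 0.84 and Pnpla2 over Mgll from -0.67 to -0.39, passing without Fasted 2. Lipe over Mgll ranged from -0.020 (without Fed 5) to 0.21, and Abhd5 over Lipa from -0.061 (without Fed 4) to 0.043 (without Fed 1), and was 0.12 with the fed group cut to Fed 4 and Fed 5.

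Other genes that changed sign were never called. Foxo1 ranged from -0.23 to 0.023 (without Fed 3) with 1 library left out, and was 0.041 without Fed 3 and Fasted 1, Tfeb 0.014 without that pair, C1qa -0.027 without Fed 5 and -0.047 without Fasted 3 (up to 0.16 without Fed 3), and Akr1b7 0.13 with the fed group cut to Fed 4 and Fed 5. Where not stated, the cause was not tested. Counts called moved by over 1.5 times in the hormone list (3, with 5 by DESeq2 and by voom), the transcription factors (1, with 3 and 4), the lysosomal list (4, with 8 and 8) and the autophagosome list (1, with 4 and 4). With the fed group cut to Fed 4 and Fed 5 these were 0, 1, 2 and 0, and the other hydrolases 4 of 7. No paired analysis was possible because the labels give no replicate numbers that link fed with fasted mice.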
